A study of Homo sapiens with 12 samples.

Results

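The 5 genes CCR7, CXCR4, CXCR5, CCR6 and CXCR3 encode chemokine receptors that direct B cells to lymphoid organs, to compartments within them and to inflamed tissue. They were followed through all probe sets, the groups of short oligonucleotides by which an Affymetrix array reads a transcript, whose platform annotation gave a single gene symbol that was 1 of these 5. The rule found 9 of the 22215 probe sets tested: 1 for CCR7, 3 for CXCR4, 2 for CXCR5, 1 for CCR6 and 2 for CXCR3. At the level of genes, these were 5 of the 11963 genes that the arrays named by 1 symbol.

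RNA of 6 human lymphoma cell lines was hybridised to 12 HG-U133A arrays, each line on 2 of them. The labels call KM-H2, L1236 and L428 Hodgkin cells; they call Namalwa, SU-DHL4 and SU-DHL6 lymphoma cells of B-cell type. As background, Namalwa is derived from a Burkitt lymphoma, and SU-DHL4 and SU-DHL6 from diffuse large B-cell lymphomas. All 6 lines were untreated and grown in RPMI 1640 with fetal bovine serum, so no agent or time separates the groups. The lines come from different tumours and are not matched in genotype. Each line stands for a single patient's tumour adapted to culture, without the T cells, stroma and other cells that surround Hodgkin cells in tissue. Namalwa and the 3 Hodgkin lines were taken over from older data of the submitters, and SU-DHL4 and SU-DHL6 were measured for this study, so that dataset and lymphoma type are partly confounded.

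Chemokine receptors are surface proteins coupled to inhibitory G proteins. A bound chemokine sets off signals to the cytoskeleton and to integrins, and the cell moves along the chemokine gradient. In B cells, CCR7 reads CCL19 and CCL21 and draws cells to the T-cell zone of lymph nodes. CXCR5 reads CXCL13 and draws them to follicles, and CXCR4 reads CXCL12 in bone marrow and in the dark zone of germinal centres. CCR6 reads CCL20 at mucosal surfaces, and CXCR3 reads CXCL9, CXCL10 and CXCL11, which interferon induces in inflamed tissue.

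All levels below are log2 RMA signals, in which 1 unit is a 2-fold difference, and a level is compared only between arrays for the same probe set. The array medians lay between 6.85 and 6.92 and the lower quartiles between 5.64 and 5.75. Values under an array's own lower quartile could not be told from background, because no detection calls were at hand. For the same reason, a value above that quartile is not thereby shown to be detected transcript. Duplicate arrays correlated at r = 0.981 to 0.995 across all probe sets, and the number of probe sets over 2-fold apart ran from 17 in L1236 to 465 in SU-DHL6. On SU-DHL6 replicate 2, the GAPDH control probe sets of the 3′ end read 0.47 above those of the 5′ end, against −0.09 to 0.16 on the other 11 arrays. The labelled cell types were checked on their markers. MS4A1, CD79A and CD79B, which mark B cells, were lower in the Hodgkin lines by limma (differences of −5.82, −5.10 and −4.04). CD22 and PAX5, the other 2 of the 5 measured B-cell markers, did not pass by their probe sets with the highest mean (−1.46 and −2.92). Of the 4 CD22 probe sets, 1 passed. GATA3 and FUT4, 2 of the 5 Hodgkin markers, were higher (3.81 and 1.41), GATA3 by 1 of its 3 probe sets. TNFRSF8 (2.15), CCL17 (3.73) and FSCN1 (4.32) did not pass by their probe sets with the highest mean, though 1 of the 2 FSCN1 probe sets did. Without 1 line, CD79A and CD79B passed in 6 of 6 cases, MS4A1 in 4, FUT4 in 2 and GATA3 in 1. These marker lists rest in part on earlier work with the same lines, and their direction is therefore no independent support.

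CCR7 read higher in each Hodgkin line than in any B-cell line, with Namalwa between the Hodgkin lines and the other B-cell lines. The CCR7 probe set 206337_at read 9.25 and 9.36 on the KM-H2 arrays, 11.84 and 11.93 on those of L1236, and 11.46 and 11.36 on those of L428. It read 7.22 and 7.12 in Namalwa, 5.59 and 5.06 in SU-DHL4, and 5.30 and 5.88 in SU-DHL6. The Hodgkin and B-cell arrays did not overlap, and 3 arrays of SU-DHL4 and SU-DHL6 lay under their own lower quartile, so a fold against those lines may be understated. In RNA from a whole culture, fewer cells with a transcript and less transcript per cell cannot be told apart.

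The mean CCR7 level over lines was 10.87 ± 1.37 in the Hodgkin lines and 6.03 ± 0.995 in the B-cell lines (SD, n = 3 lines each). The difference was 4.84 ± 0.85 (SE), or 28.6-fold, with a 95% interval of 2.69 to 6.98. It did not pass limma's test on the 6 line means after adjustment over all 22215 probe sets (unadjusted p = 0.00188, adjusted p = 0.0839). None of the 9 receptor probe sets passed that test, against 273 of all probe sets (1.23%), of which 98 (0.441%) were higher and 175 (0.788%) lower in the Hodgkin lines. At an unadjusted p under 0.05 in limma there were 3209 of the 22215 probe sets, including those of CCR7 and CCR6 and the CXCR3 probe set 207681_at. The CCR6 and CXCR3 differences were only −0.24 and 0.23, with 12 and 5 of 12 arrays under their own lower quartile. With the 12 arrays taken as replicates, CCR7 passed (adjusted p = 0.000244), and over 26 alternatives its adjusted p ran from 0.000244 to 0.429. The authors' deposited table lists CCR7 with the same difference of 4.84 and an adjusted p of 0.000245, in a comparison that calls 2994 of 22283 probe sets (13.4%). That value is close to 0.000244, from limma on the 12 arrays as replicates, a setting that counts duplicates of a line as independent. It is therefore no separate support.

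**Figure D1:**
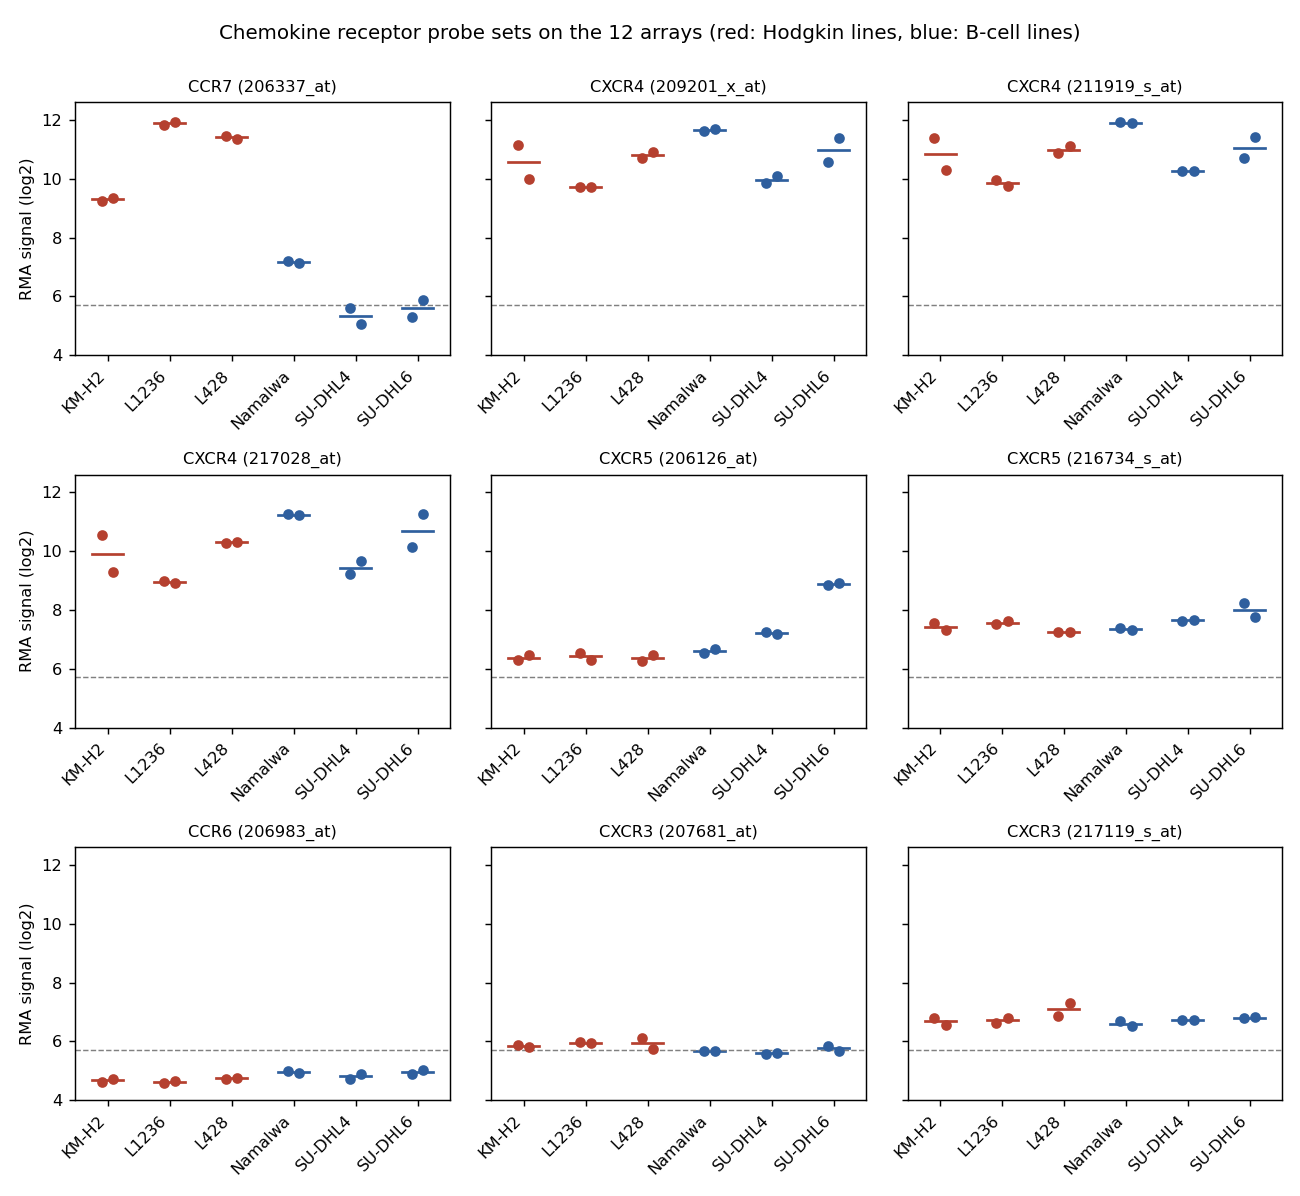
Log2 RMA signal (vertical axis) of the 9 probe sets on the 12 arrays, by cell line (horizontal axis); each point is 1 array, red for Hodgkin lines and blue for B-cell lines, and the dashed line at 5.72 is the median lower quartile of the arrays. CCR7 reads 9.25 or more on every Hodgkin array and 7.22 or less on every B-cell array, the 3 CXCR4 panels show KM-H2 and SU-DHL6 duplicates apart, and CCR6 lies under the dashed line throughout.

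Within the types, CCR7 also differed between lines, as tested by limma on all 12 arrays where a pair differed if the adjusted p was below 0.05 and the lines lay 1 log2 unit or more apart. The order was L1236, L428, KM-H2, Namalwa, SU-DHL6 and SU-DHL4, with line means of 11.88, 11.41, 9.30, 7.17, 5.59 and 5.33. Neighbours did not pass at either end of the order, with L1236 0.47 above L428 (adjusted p = 0.154) and SU-DHL6 0.26 above SU-DHL4 (adjusted p = 0.448). The other 13 of the 15 pairs of lines differed, a count that 20 probe sets (0.09% of all) reached or passed. The error in these pairwise tests is that of duplicates, possibly only a technical one, since separate cultures are not stated in the sources used here.

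KM-H2 was the lowest of the Hodgkin lines for CCR7, 5.98-fold below L1236 (adjusted p = 9.25e-06) and 4.32-fold below L428 (adjusted p = 4.63e-05). Namalwa was the highest of the B-cell lines, 3.58-fold above SU-DHL4 (adjusted p = 0.000239) and 2.98-fold above SU-DHL6 (adjusted p = 0.000568). The step from KM-H2 down to Namalwa, the closest lines across the types, was 4.39-fold (adjusted p = 3.58e-05), and that from L1236 down to SU-DHL4 was 93.8-fold (adjusted p = 1.37e-08). Within the earlier dataset alone, all 3 Hodgkin lines thus lay above Namalwa, L1236 by 26.2-fold and L428 by 18.9-fold.

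The share of all probe sets that differed in a pair gives the background for such counts. Among the Hodgkin lines it was 8.91% for KM-H2 and L1236, 7.82% for KM-H2 and L428, and 6.77% for L1236 and L428. Among the B-cell lines it was 4.26% for Namalwa and SU-DHL4, 5.22% for Namalwa and SU-DHL6, and 5.07% for SU-DHL4 and SU-DHL6. Across the types, KM-H2 differed in 9.62% of probe sets from Namalwa, 11.6% from SU-DHL4 and 10.2% from SU-DHL6. For L1236 these shares were 10%, 11.8% and 10.5%, and for L428 8.91%, 10% and 8.91%. Over all probe sets, 71.6% differed in 0 pairs, 13.5% in at least 5 and 1.82% in at least 10.

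The CCR7 ligands showed no such range over the lines. CCL19 had line means of 5.45 to 5.69, with 11 of 12 arrays under their own lower quartile, and CCL21 had line means of 6.86 to 7.12. Both differed in 0 of 15 pairs.

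CXCR4 was read at 8.93 or above on all 12 arrays by each of its 3 probe sets, and its order over the lines crossed the lymphoma types. The CXCR4 probe set with the highest mean, 211919_s_at, read 11.92 and 11.89 in Namalwa, 10.28 and 10.27 in SU-DHL4, and 10.69 and 11.43 in SU-DHL6. The same CXCR4 probe set read 11.37 and 10.29 in KM-H2, 9.97 and 9.76 in L1236, and 10.86 and 11.10 in L428. Namalwa was the highest and L1236 the lowest line, and the types overlapped.

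The Hodgkin mean of this CXCR4 probe set was 10.56 ± 0.60 and the B-cell mean 11.08 ± 0.82 (SD, n = 3 lines each). The difference of −0.52 ± 0.51 (SE) did not pass limma's test (adjusted p = 0.694), and its 95% interval of −1.81 to 0.77 leaves room for a change of more than 2-fold in the B-cell lines' favour. Without Namalwa the difference was −0.11, without L1236 −0.17 and without SU-DHL4 −0.92, and with dataset as a block it was −1.34. The other CXCR4 probe sets gave −0.50 ± 0.52 (209201_x_at, adjusted p = 0.709) and −0.73 ± 0.58 (217028_at, adjusted p = 0.627). All 3 put the lines in the order Namalwa, SU-DHL6, L428, KM-H2, SU-DHL4 and L1236, and their line means correlated at r = 0.978 to 0.994 over the 6 lines, as readings of the same RNA. In the authors' deposited table the 3 adjusted p-values are 0.45, 0.42 and 0.325.

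No neighbours in the CXCR4 order differed, but 5 of 15 pairs did, and they were the same pairs for all 3 probe sets. By 211919_s_at, Namalwa was 4.10-fold above L1236 (adjusted p = 0.000921) and 3.10-fold above SU-DHL4 (adjusted p = 0.00741) for CXCR4. Namalwa was also 1.07 log2 units above KM-H2 (adjusted p = 0.0315). L1236 was 1.11 below L428 (adjusted p = 0.0336) and 1.19 below SU-DHL6 (adjusted p = 0.0182). Such differences thus occurred within each type as well as across them.

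The CXCR4 level was uncertain in KM-H2 and SU-DHL6, whose duplicate arrays disagreed. In KM-H2, replicate 2 read 1.09 to 1.27 below replicate 1 by the 3 probe sets, and at most 0.464% of all probe sets lay at least as far apart in that line. In SU-DHL6, replicate 2 read 0.74 to 1.12 above replicate 1, which 1.4% to 4.8% of probe sets equalled or passed. In the other 4 lines the CXCR4 duplicates lay at most 0.43 apart. All 3 CXCR4 probe sets were among the 122 over 2-fold apart between the KM-H2 arrays. Other genes of the lists used here were checked only by their probe set with the highest mean, in KM-H2 and in SU-DHL6. Those as far apart in KM-H2 were ACKR3 (8.24 and 6.28), CCL20 (4.95 and 7.79), CCL17 (6.45 and 8.06) and the T-cell marker CD3D (6.53 and 8.46). In SU-DHL6, where 465 probe sets were as far apart, the list genes RGS1 (6.25 and 9.87), RGS2 (9.16 and 11.38), RGS16 (7.95 and 9.90), GNAI3 (8.67 and 9.87) and ITGB1 (5.82 and 7.15) read higher on replicate 2, the array with the high GAPDH 3′ to 5′ difference. The B-cell marker MS4A1 read lower on it (12.78 and 11.56). What part these play in the CXCR4 values was not tested. Without KM-H2 replicate 1 or 2, CXCR4 differed in 5 to 7 pairs, and without SU-DHL6 replicate 1 or 2, in 4 to 7. Without either array of Namalwa or of L1236 the CXCR4 count fell to 2 or 3 for each probe set. Without either array of L428 it was 3 for 209201_x_at and 217028_at. Without SU-DHL4 replicate 1 it was 2 for 209201_x_at and 3 for 217028_at, and without SU-DHL4 replicate 2 it was 3 for 209201_x_at.

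CXCL12, the ligand of CXCR4, had its high level in KM-H2 alone. Its KM-H2 arrays read 10.02 and 9.19 against line means of 6.91 to 7.08 in the other 5 lines. KM-H2 differed from each of these for CXCL12, by 5.78-fold to 6.49-fold. ACKR3, which also binds CXCL12 and removes it from the surroundings, was highest in KM-H2 (7.26) and Namalwa (6.58), with 4.50 to 4.99 in the other lines, and differed in 8 pairs. The ACKR3 mean in KM-H2 rests on arrays at 8.24 and 6.28. Neither gene passed between the types (CXCL12 0.93, adjusted p = 0.632, and ACKR3 0.37, adjusted p = 0.892). Without KM-H2 these differences were 0.07 and −0.46.

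CXCR5 was highest in SU-DHL6. Its probe set 206126_at read 8.85 and 8.92 in SU-DHL6, 7.25 and 7.19 in SU-DHL4, and 6.54 and 6.69 in Namalwa. In the Hodgkin lines CXCR5 read 6.30 and 6.46 in KM-H2, 6.54 and 6.31 in L1236, and 6.27 and 6.47 in L428. The Hodgkin line means did not overlap those of the B-cell lines, although L1236 and Namalwa each had an array at 6.54.

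By this CXCR5 probe set the Hodgkin mean was 6.39 ± 0.03 and the B-cell mean 7.57 ± 1.18 (SD, n = 3 lines each). The difference of −1.18 ± 0.59 (SE), or 2.27-fold, did not pass limma's test (adjusted p = 0.443, 95% interval −2.67 to 0.31). SU-DHL6 was 3.18-fold above SU-DHL4 (adjusted p = 1.73e-05), 4.82-fold above Namalwa and 5.51-fold to 5.73-fold above the Hodgkin lines. These were the 5 pairs of 15 that differed for CXCR5 206126_at. SU-DHL4 lay 0.60 above Namalwa (adjusted p = 0.00691), which is under the minimum size set for a pair. Without SU-DHL6, the difference between the types was −0.53, and with dataset as a block −0.22.

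The other CXCR5 probe set, 216734_s_at, showed a narrower range. It read 8.25 and 7.76 in SU-DHL6, 7.64 and 7.67 in SU-DHL4, 7.38 and 7.31 in Namalwa, and between 7.25 and 7.62 on the Hodgkin arrays. CXCR5 by this probe set differed in 0 pairs and by −0.25 ± 0.19 (SE) between the types (adjusted p = 0.62). Both probe sets placed SU-DHL6 first and SU-DHL4 next, and their line means correlated at r = 0.911 over 6 lines. In the authors' deposited table the CXCR5 adjusted p-values are 0.0767 (206126_at) and 0.307 (216734_s_at). CXCL13, the follicular chemokine that CXCR5 reads, had line means of 4.56 to 4.74, with all 12 arrays under their own lower quartile.

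CCR6 was not told from background in any line. Its probe set 206983_at read 4.57 to 4.76 on the 6 Hodgkin arrays and 4.72 to 5.03 on the 6 B-cell arrays, all 12 under their own lower quartile. The line means did not overlap, with a difference of −0.24 ± 0.08 (SE) that did not pass limma's test (adjusted p = 0.261). It differed in 0 pairs. The authors' deposited table lists CCR6 at −0.24 with an adjusted p of 0.0215, which falls under 0.05 at signals in the background range. CCL20, the CCR6 ligand, read 4.95 and 7.79 on the KM-H2 arrays, so that 1 array carried its whole rise, and had line means of 4.80 to 4.97 elsewhere. It differed in 0 pairs.

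CXCR3 varied little. Its probe set 207681_at ran from 5.75 to 6.11 on the Hodgkin arrays and from 5.58 to 5.86 on the B-cell arrays, with 5 of 12 arrays under their own lower quartile. The Hodgkin line means lay 0.23 ± 0.08 (SE) above those of the B-cell lines without overlap (adjusted p = 0.272 by limma). The other CXCR3 probe set, 217119_s_at, read 6.87 and 7.31 in L428 and between 6.52 and 6.83 on the other 10 arrays. Its type difference was 0.11 ± 0.14 (SE, adjusted p = 0.757), and −0.02 without L428. Both CXCR3 probe sets differed in 0 pairs, and the authors' deposited table gives adjusted p-values of 0.05 and 0.573.

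CXCL10, a CXCR3 ligand induced by interferon, differed far more between lines than CXCR3 did. Its line means were 10.61 in L1236 and 9.67 in KM-H2, against 6.85 to 7.41 in L428 and the B-cell lines, and 8 pairs differed. The CXCL10 difference between types was 2.02 (adjusted p = 0.425). L428 (6.94) lay within the range of the B-cell lines, and without it the difference was 3.08 (adjusted p = 0.0721), while without L1236 it was 1.25. CXCL9 and CXCL11, the other CXCR3 ligands, differed in 0 pairs, with CXCL11 under the lower quartile on all 12 arrays (4.66 in KM-H2 and 3.96 to 4.20 elsewhere).

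Set side by side, 4 of the 9 receptor probe sets had line means that did not overlap between the types (CCR7, CXCR5 206126_at, CCR6 and CXCR3 207681_at), against 22.6% of all probe sets. None of the 4 passed the test between the types, and the CCR6 signals lay in the background range. Of the 4, only CCR7 had a 95% interval of the difference that lay wholly beyond 1 log2 unit. These intervals are not adjusted for the number of probe sets tested. The share of all probe sets with such an interval is not given here, so no weight rests on it.

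**Figure D2:**
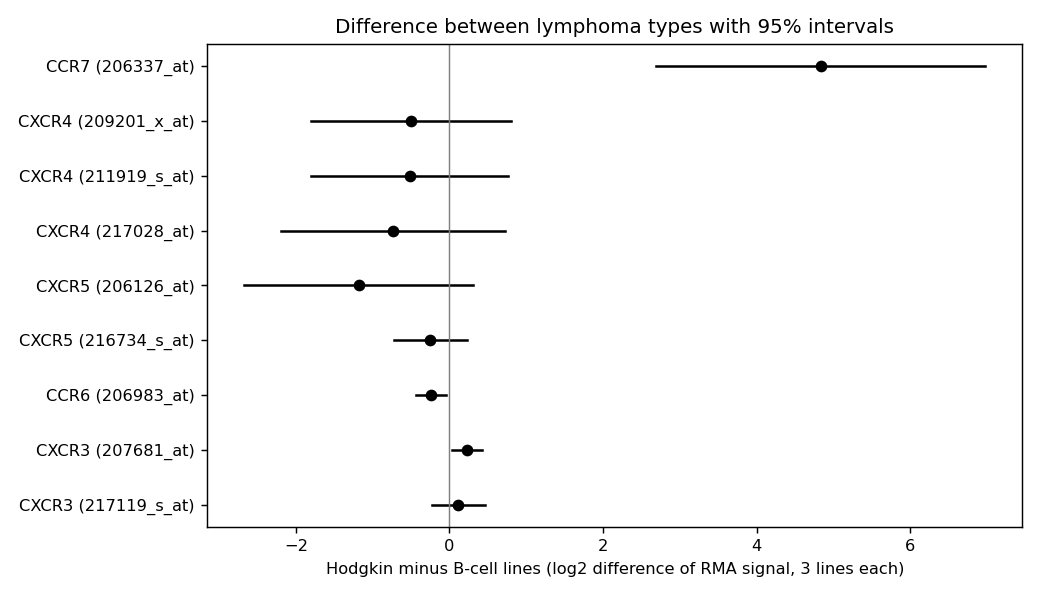
Difference between the Hodgkin and B-cell lines (horizontal axis, log2 difference of RMA signal, 3 lines each) for the 9 probe sets (vertical axis), with 95% intervals as bars. CCR7 stands at 4.84 (2.69 to 6.98), and the intervals of the 3 CXCR4 and the 2 CXCR5 probe sets include 0.

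Most other chemokine receptors differed in 0 pairs of lines, as did most probe sets of the arrays. Of 18 such genes 16 were measured, 0 of them passed between the types, and their median difference was 0.06, against 0.00 over all 11963 genes. Of all 11963 genes, 56 (0.468%) were called higher and 104 (0.869%) lower in the Hodgkin lines. For 13 of the 16 other receptors, 0 pairs of lines differed, against 71.6% of all probe sets. CCR4, the receptor for CCL17 and CCL22, read 7.86 in L428 and 6.51 to 6.95 in the other lines, with 4 pairs that differed and a type difference of 0.57 (adjusted p = 0.486, and 0.22 without L428). After CCR4 and ACKR3, given above, the next in size of difference were ACKR1, an atypical receptor that binds many chemokines without G-protein signalling, at 0.25 (adjusted p = 0.579), and CCR2, the receptor for CCL2, at 0.22 (adjusted p = 0.439). Of the 2 CCR2 probe sets, the other had the opposite sign. CCR10, chosen after its values were seen, read 6.90 in KM-H2 and 5.53 to 6.02 elsewhere and differed in 3 pairs. Of the 8 ligands of the 5 receptors 0 passed between the types (median difference 0.18). For 6 of them 0 pairs differed, against the same 71.6% of all probe sets.

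**Figure D3:**
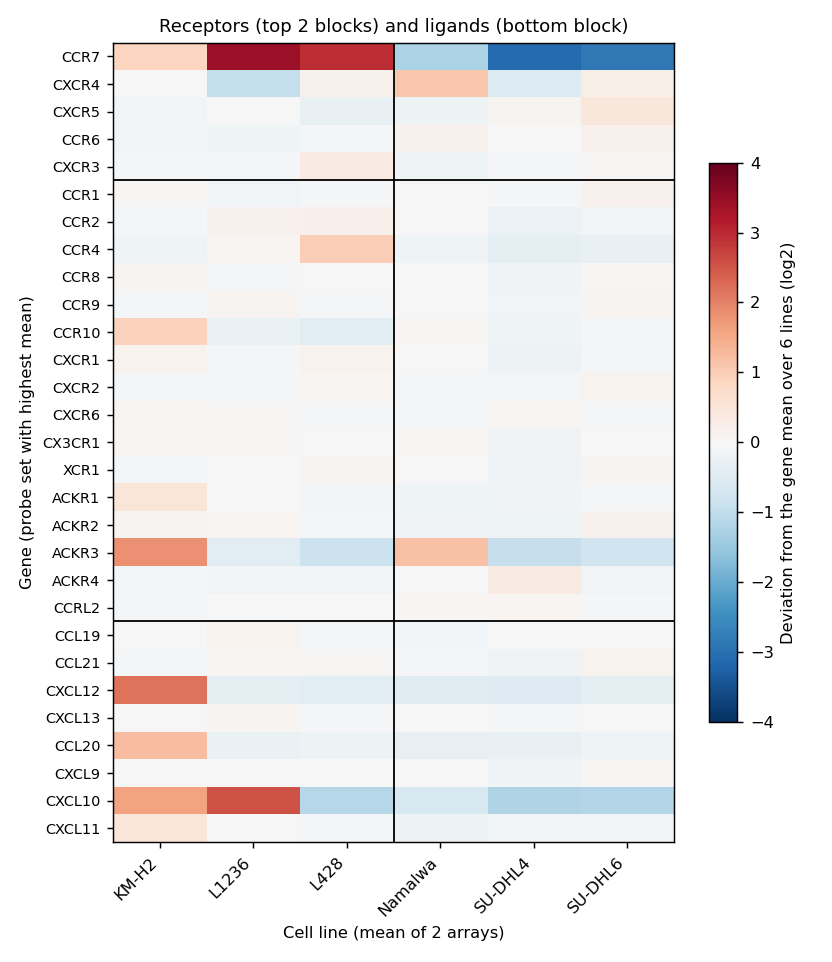
Deviation of each line's mean (columns, mean of 2 arrays) from the gene's mean over the 6 lines (colour, log2) for chemokine receptors and ligands (rows, each by its probe set with the highest mean). CCR7 is raised in the 3 Hodgkin lines, CXCL12 in KM-H2, ACKR3 in KM-H2 and Namalwa, and CXCL10 in L1236 and KM-H2, while most other rows are pale.

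Genes that carry or damp the receptors' signal were measured for 26 of 29 list members, of which 0 were higher and 1 was lower (median difference −0.17). Over all 11963 genes, 0.468% were higher and 0.869% lower. The called gene was RGS19, a GTPase activator that ends the signal of inhibitory G proteins, with −0.68 ± 0.09 (SE, adjusted p = 0.0476). That call was lost without any 1 line and in 16 of 26 alternatives. RGS13, a related regulator of germinal-centre B cells, did not pass at −3.76 (adjusted p = 0.29), and the types overlapped, with L1236 (8.96) above Namalwa (8.82). The RGS13 difference was −5.14 without L1236 and −2.94 without KM-H2. RGS1, which restrains chemokine responses of B cells, read 9.55 to 10.57 in the Hodgkin lines, above the 4.86 to 8.06 of the others, with a difference of 3.69 (adjusted p = 0.147). The mean of 8.06 is that of SU-DHL6, whose arrays read 6.25 and 9.87. Without SU-DHL6 replicate 2, its high array, RGS1 passed (difference 4.29, adjusted p = 0.0293). Over all arrays left out in turn, the adjusted p of RGS1 ran from 0.0293 to 0.3725. Without a line it ran from 0.0672 to 0.3135 and did not pass. RHOH, a GTPase of blood cells, had −1.59 (adjusted p = 0.168) and CORO1A, an actin regulator, −1.45 (adjusted p = 0.475). CORO1A read 8.29 in KM-H2 and 10.71 to 11.97 in the other lines, and its difference was −0.60 without KM-H2.

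Of 15 other homing and positioning receptors 13 were measured and 0 passed (median difference −0.04), where 0.468% of all genes were called higher and 0.869% lower. CD44, a hyaluronan receptor, read 9.96 in L1236 and 6.56 to 7.58 in the other lines (type difference 1.52, adjusted p = 0.473, and 0.60 without L1236). The integrin chains ITGB7 (−1.48, adjusted p = 0.299) and ITGAL (−1.39, adjusted p = 0.408) read highest in SU-DHL4 and SU-DHL6, at 8.28 to 9.53. These are the 2 lines measured anew, and with dataset as a block the differences were −0.29 for ITGB7 and −0.0043 for ITGAL. Without Namalwa, ITGB7 passed (−2.07, adjusted p = 0.0182) and ITGAL did not (−2.09, adjusted p = 0.0909), and without SU-DHL6 ITGAL had −0.84. GPR183, an oxysterol receptor that positions B cells in follicles, read 7.19 in L428 and 4.43 to 5.78 elsewhere (0.79, adjusted p = 0.693, and 0.05 without L428).

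Of the 13 transcription factors listed as tied to these receptors, all measured, 1 was higher and 2 were lower in the Hodgkin lines (median difference 0.11). Over all 11963 genes the shares were 0.468% higher and 0.869% lower. NFKB2, a subunit of NF-kB, which is known to act on CCR7, was higher by 1.80 ± 0.24 (SE, adjusted p = 0.0464). The call held for 1 of its 3 probe sets, 1 other had the opposite sign, and the call was lost without any 1 line. FOXO1, a factor of resting and germinal-centre B cells, was lower by both probe sets (−1.37 ± 0.09, SE, 2.59-fold, adjusted p = 0.0114). Its call was lost without SU-DHL4 (adjusted p = 0.0541) or SU-DHL6 (0.0516) and with dataset as a block (0.097). POU2F2, an octamer-binding factor of B cells, was lower by 1 of 2 probe sets (difference −0.61, adjusted p = 0.0492), and its call was lost in 21 of 26 alternatives. POU2AF1, its coactivator, had −4.36 (adjusted p = 0.321), with L1236 at 10.69 against 4.99 and 5.21 in the other Hodgkin lines. It passed without L1236, the Hodgkin line that read high (−6.23, adjusted p = 0.00556). Without any other line POU2AF1 did not pass (adjusted p = 0.436 to 0.563). JUN had 2.13 (adjusted p = 0.0843), JUNB 1.80 (adjusted p = 0.241) and NFKB1 0.73 (adjusted p = 0.3). The further NF-kB subunits REL (−0.47), RELA (−0.07) and RELB (0.01) did not pass. Of the 2 REL probe sets, the other had the opposite sign.

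Promoters of 4 of the 5 receptor genes were matched in RefSeq (GRCh38.p14), as 250 bases before to 50 after each start. CCR7 had no promoter entry, so its promoter could not be searched. Those of CXCR5 and CXCR4 are shown because both genes differed between lines. In CXCR5, at chr11:118893142-118893441 on the plus strand, the capitals mark a pair of overlapping matches to the NF-kB motif, 1 on each strand, at −62 and −61 from the start. In CXCR4, at chr2:136118100-136118399 on the minus strand, the sequence of the first of 3 starts held no match to the motifs searched.
CXCR5: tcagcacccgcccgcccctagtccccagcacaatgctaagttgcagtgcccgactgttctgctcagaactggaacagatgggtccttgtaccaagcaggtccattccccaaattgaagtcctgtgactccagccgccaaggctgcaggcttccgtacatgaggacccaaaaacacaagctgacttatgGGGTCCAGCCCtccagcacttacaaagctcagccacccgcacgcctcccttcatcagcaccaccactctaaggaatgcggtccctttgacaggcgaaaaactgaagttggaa
CXCR4: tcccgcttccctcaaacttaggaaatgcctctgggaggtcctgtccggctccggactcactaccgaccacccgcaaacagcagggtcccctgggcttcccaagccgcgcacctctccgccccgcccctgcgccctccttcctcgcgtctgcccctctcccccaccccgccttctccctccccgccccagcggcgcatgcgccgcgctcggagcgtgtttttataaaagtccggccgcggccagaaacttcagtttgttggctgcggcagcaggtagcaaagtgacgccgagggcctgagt
The motifs searched on both strands were NF-kB (GGG and CC with 5 bases of any kind between them), AP-1 TGANTCA, octamer ATGCAAAT and FOXO GTAAACA. Of 35116 promoters of the same length, 58.7%, 7.71%, 1.77% and 3.42% held them. A match is a description of the letters and not a site of binding. The other CXCR4 starts had NF-kB matches at −81 and −54, and CXCR3 had 3 (at −203, −131 and −76). In CCR6 the second start had an NF-kB match at −55 and the third an octamer match at −84.

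Markers of other cells gave no call between the types, where 0.468% of all genes were called higher and 0.869% lower. Of T and NK cell markers 9 of 9 were measured and 0 passed, with medians over the list of 6.89 to 7.33 in the 6 lines, the highest in KM-H2. Several markers read highest in a single line, and those given here were named after their values were seen. In KM-H2 they were the T-cell markers CD4 (9.86 against 7.83 to 7.96) and CD3D (7.50 against 6.41 to 6.57) and the myeloid markers CD14 (6.36 against 5.42 to 5.57) and CSF1R (6.94 against 5.97 to 6.66). In L1236 it was PECAM1, an endothelial marker (9.87 against 6.84 to 7.06). Between the types CD4 differed by 0.63 with this probe set, and the other of its 2 probe sets had the opposite sign. The KM-H2 mean of CD3D rests on arrays at 6.53 and 8.46, so that 1 array carried its whole rise. Of myeloid markers 6 of 8 were measured, with list medians of 5.27 to 5.75 and LYZ, S100A8 and S100A9 under the lower quartile on all arrays. Of stromal and epithelial markers 8 of 8 were measured, with list medians of 6.62 to 6.79 and COL3A1 and EPCAM under the lower quartile on all arrays. What part such markers play in the receptor values was not tested.

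The genes most like each receptor over the lines were ranked by Pearson's r over the 6 line means, among 1167 or 1168 genes that spanned at least 2 log2 units. For CCR7 these were BAG3 (r = 0.995), IFIH1 (0.991) and RNF11 (0.986), each with its highest levels in L1236 and L428 and its lowest in SU-DHL4 and SU-DHL6. For CXCR4 (211919_s_at) they were FYN (0.908), OSR2 (0.884) and GUSBP11 (0.874), each highest in Namalwa. For CXCR5 (216734_s_at) they were HOMER3 (0.917), LPIN1 (0.915) and CYP39A1 (0.914), each highest in SU-DHL6. By 206126_at, the CXCR5 probe set that differed in 5 pairs, they were CYP39A1 (0.996), LMO2 (0.994) and CHI3L2 (0.985). For CCR6 they were LMO4 (0.994), EVL (0.975) and TASOR2 (0.973), and for CXCR3 (217119_s_at) SMG6 (0.957), SLC25A24 (0.942) and CCL1 (0.931). The CCR6 ranking is against a probe set under the lower quartile on all 12 arrays, and can be read only as such. The last 3 receptors spanned less than 1 log2 unit over the lines by these probe sets. These values are descriptions over 6 lines that share arrays and normalisation. A high r follows in part from taking the 3 highest among so many genes.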

How the data were processed

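Gene expression was measured on 12 HG-U133A arrays of 6 lines. The authors deposited log2 values normalised by RMA in R 2.10.1, per the submitters' processing notes, and their own comparison with p-values and a log2 difference. Neither the RMA settings nor the place of duplicates in that comparison is given in the sources used here. Its adjusted p-values are close to those of limma on 12 arrays as replicates (CCR7 0.000245 and 0.000244, CCR6 0.0215 in both). The values hold no detection calls, and the number of arrays limits precision.

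The table's 68 Affymetrix controls were dropped from its 22283 probe sets. A single symbol was annotated to 19065 probe sets, more than 1 to 1043 and none to 2107, and 19053 of the 19065 matched a RefSeq gene table by Entrez identifier. Where a gene had more than 1 probe set, that with the highest mean stood for it. Duplicate arrays were averaged, and limma 3.58.1 (R 4.3.3) compared 3 with 3 line means, two-sided, with Benjamini-Hochberg adjustment over 22215 probe sets and a threshold of 0.05. The 15 pairs of lines were tested by limma on the 12 arrays, adjusted over all probe sets within each pair. Both fits were tested on simulated data. All adjusted p-values come from limma or, where named, from the authors' deposited table. The lists were written from general knowledge. The text names all members, the called genes of each list, up to 4 further genes with the largest difference in 5 lists, and the 3 genes most like each member. Members, lists, tests and alternatives were chosen with earlier results of these data known. Alternatives changed the replicate unit, blocks, scaling, floor, filter and single lines or arrays.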

Additional observations from a re-analysis of the deposited data

How the results depend on the processing

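CCR7 passed when the 12 arrays were taken as replicates (adjusted p = 0.000244), with line as a random block (0.000422) and with line as a random block and a replicate block (0.00108). Its difference is 4.84 in these 3 by construction, since each line has 2 arrays. Leaving out a line or an array gave 4.33 to 5.62, with adjusted p-values of 0.0516 to 0.258 without a line. With dataset as a block it was 3.70 (adjusted p = 0.429). Both fits with a random line block used 1 correlation of duplicates, shared by all probe sets, and degrees of freedom from arrays, not lines. They can thus still overstate the replication of a lymphoma type. With 12 arrays as replicates, CCR6 (−0.24, adjusted p = 0.0215) and CXCR3 207681_at (0.23, adjusted p = 0.0499) passed; that setting counts duplicates of a line as independent. With dataset as a block, CXCR5 216734_s_at turned to 0.0784, ACKR3 to −0.97 and GPR183 to −0.0618. Leaving out a line or an array gave −0.0192 to 0.19 for CXCR3 217119_s_at, turned without L428, and −0.46 to 1.04 for ACKR3, turned without KM-H2 and, at −0.0022, without SU-DHL4. The cause of these turns was not tested. CCR6 had no value with a floor, since all its values lay under it.

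Probe sets called higher were 4 with dataset as a block, 1166 with 12 arrays as replicates, 619 with a random line block, 509 with that and a replicate block, 31 with a floor, and 7 to 147 without a line or array. Those called lower were 41, 1830, 986, 870, 54, and 35 to 176. In pairs of lines, CXCR4 209201_x_at and 217028_at fell from 5 to 3 with a replicate block, while 211919_s_at stayed at 5. Without an array the 3 probe sets had 2 to 6 (209201_x_at), 3 to 6 (211919_s_at) and 2 to 7 (217028_at) pairs. At a log2 difference of at least 2 they had 0, 1 and 1 (209201_x_at, 211919_s_at and 217028_at). With no minimum size, CXCR5 had 9 (206126_at) and 3 (216734_s_at), CCR6 3, and CXCR3 1 by each probe set. Replicate numbers do not pair the samples: same-numbered arrays of 2 lines deviated together at r = −0.443 to 0.296, over 0.1 in 4 of 15 pairs of lines. Of 446 recomputed values of the members and counts, 390 kept their direction and side of the threshold, or stayed within 1.5 times for a count. The 9 other called genes named kept their sign and lost the call in 67 of 234 recomputations. The 20 named genes not called passed in 25 of 516.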
